A study of Mus musculus with 2 samples.

Results

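The keratin genes of the mouse were examined for open chromatin in embryonic femoral cartilage. They were the protein-coding genes of GENCODE mouse release 21 whose symbol is Krt followed by a number and an optional letter, and 53 of the 20807 protein-coding genes on chromosomes 1 to 19 met this rule. The symbol Krt74 also matched, but the annotation gives it as a transcribed unitary pseudogene, and it was left out. The keratin-associated protein genes (Krtap), which encode matrix proteins of the hair shaft and carry a similar name, are a separate family. The data came from ATAC-seq, in which a transposase cuts accessible DNA and tags the fragments for sequencing. Both samples were chondrocyte suspensions from FVB mouse embryos at E15.5, 1 from the proximal and 1 from the distal cartilaginous end of the femur, and they shared strain, age and protocol and differed only in the end. Cartilage of right and left femurs was pooled within a litter of 8 animals on average, each end had 2 biological replicates, and 50000 cells went into a library. A deposited list gave, for each end, the positions of the peaks that its replicates shared at an IDR (irreproducible discovery rate) below 0.05. No treatment, mutation or transgene was used, and the zones of the growth plate were not separated. By the paper's account, the dissected tissue also included the perichondrium over the growth plate.

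Keratins are the intermediate filament proteins of epithelia. A filament is built from pairs of an acidic type I and a basic type II keratin, and most genes of each type lie side by side in a cluster of their own. Krt8, Krt18 and Krt19 are used in simple epithelia, Krt5, Krt14 and Krt15 in the basal layer of stratified epithelia, and Krt1 and Krt10 in the layers above it. Other members are induced in wounds and skin appendages or build the inner root sheath and the shaft of the hair. Chondrocytes instead rely on vimentin as their main intermediate filament protein.

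Few keratin genes had a peak in either femur end. A peak lay within 1 kb of an annotated start site of 4 of the 53 genes, Krt1, Krt8, Krt10 and Krt16, and inside the gene for these and for Krt86 and Krt88. Krt10 and Krt16 had their peaks at both ends of the femur, and the peaks of Krt1, Krt8, Krt86 and Krt88 were in the distal list only. Of these genes, Krt16 had a peak over its own 5′ end, Krt8 had one in its first intron, and the peaks of the other 4 lay in the 3′ part of the gene. At the start sites, the name of closed epithelial loci can only mean few called peaks. There, 49 genes had no peak, while 59.1% of all protein-coding genes had one. Across the loci the values were mixed. Peak density was 0.402 times the chromosome mean in the cluster on chromosome 11 and 1.03 times in that on chromosome 15. The latter was 0.538 with the proximal list alone, 0.235 with wider peaks alone, 0.190 per protein-coding gene and 0.800 in covered bases. It was 1.18 with the distal list alone, 1.21 with clusters cut at gaps of 100 kb and 1.60 with 100 kb added on both sides. No interval was computed for these alternatives. A gene without a peak is one that the lists do not name, which is not a measurement of closed chromatin, because the lists hold only peaks that passed the callers' thresholds. In pooled tissue, a peak from a few cells and weak opening in many cells cannot be told apart.

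The sequences shown first are the promoters of 4 keratins whose start sites are at the centre of the results, as the RefSeq promoter table of GRCm38.p6 (the assembly of mm10) gives them, from 250 bases before to 50 after the start. Krt10 stands for the genes with a peak elsewhere in the gene, Krt8 and Krt18 for the pair of simple epithelia, and Krt5 for the basal layer. They lie at chr11:99389315-99389614 on the minus strand for Krt10, chr15:102004293-102004592 on the minus strand for Krt8, chr15:102027966-102028265 on the plus strand for Krt18 and chr15:101712856-101713155 on the minus strand for Krt5. Capitals mark, on either strand, TATAAA as the TATA box, CCAAT as the CCAAT box, GGGCGG as the GC box and TGANTCA as the AP-1 motif, and matches may overlap. A peak of either list overlapped 0 of these 4 windows. The RefSeq start of Krt8 lies somewhat downstream of the GENCODE start used for all distances. In Krt10, TATAAA began 26 bases before the start. In Krt8 the marked stretch began 3 bases before the RefSeq start and so lay across it. The table held 36 of the 53 keratin genes, and Krt222, Krt33a, Krt35, Krt15, Krt19, Krt16, Krt17, Krt80, Krt87, Krt88, Krt81, Krt86, Krt83, Krt6b, Krt6a, Krt1 and Krt4 were the others.
Krt10 promoter: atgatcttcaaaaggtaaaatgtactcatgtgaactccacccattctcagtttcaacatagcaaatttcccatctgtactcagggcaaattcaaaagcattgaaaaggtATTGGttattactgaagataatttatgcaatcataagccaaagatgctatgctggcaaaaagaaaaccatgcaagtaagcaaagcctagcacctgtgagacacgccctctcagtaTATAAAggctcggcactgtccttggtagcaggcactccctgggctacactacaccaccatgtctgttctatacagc
Krt8 promoter: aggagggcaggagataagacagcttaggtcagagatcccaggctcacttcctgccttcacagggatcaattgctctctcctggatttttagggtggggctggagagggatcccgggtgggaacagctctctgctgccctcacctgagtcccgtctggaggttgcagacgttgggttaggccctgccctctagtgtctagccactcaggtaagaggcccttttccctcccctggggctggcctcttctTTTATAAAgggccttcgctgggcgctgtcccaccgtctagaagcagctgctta
Krt18 promoter: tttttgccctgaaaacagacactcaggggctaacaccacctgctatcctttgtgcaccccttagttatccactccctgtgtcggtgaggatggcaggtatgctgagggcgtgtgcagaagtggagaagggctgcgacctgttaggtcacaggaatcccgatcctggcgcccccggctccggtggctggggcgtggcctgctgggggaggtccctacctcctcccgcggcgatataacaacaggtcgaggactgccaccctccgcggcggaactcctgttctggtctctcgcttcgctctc
Krt5 promoter: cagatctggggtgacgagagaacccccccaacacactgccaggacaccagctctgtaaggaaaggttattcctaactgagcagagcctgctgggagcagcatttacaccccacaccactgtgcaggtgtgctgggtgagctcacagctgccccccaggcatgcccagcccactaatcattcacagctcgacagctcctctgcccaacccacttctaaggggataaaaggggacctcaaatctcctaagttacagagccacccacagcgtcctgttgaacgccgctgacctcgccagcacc

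The next sequences are the central 200 bases of the peaks that gave Krt16, Krt8, Krt10 and Krt1 their call, read on the minus strand, which all 4 genes use. They lie at chr11:100249018-100249217 for Krt16, chr15:102003154-102003353 for Krt8, chr11:99386224-99386423 for Krt10 and chr15:101846034-101846233 for Krt1. Capitals mark the same motifs in Krt16 and Krt8, and they mark GGC, a codon for glycine, in Krt10 and Krt1, whose proteins are known for glycine-rich ends. The Krt16 peak carried an AP-1 motif, and the Krt8 centre held 0 matches to the 4 motifs. The Krt1 centre held 30 GGC triplets on the strand shown and 10 stood in that of Krt10. Counted on both strands with overlaps allowed, the Krt1 centre held 31, a number reached in 0.398% of the 32388 peak regions of the genome, whose median was 8. The Krt10 centre held 12 on both strands, a number reached by 32.5% of the regions. The triplet was chosen after these sequences had been seen, and the reading frame was not examined.
Krt16 peak centre: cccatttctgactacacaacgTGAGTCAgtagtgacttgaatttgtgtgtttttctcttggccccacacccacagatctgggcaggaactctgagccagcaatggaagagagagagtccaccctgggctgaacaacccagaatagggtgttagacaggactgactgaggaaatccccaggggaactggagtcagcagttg
Krt8 peak centre: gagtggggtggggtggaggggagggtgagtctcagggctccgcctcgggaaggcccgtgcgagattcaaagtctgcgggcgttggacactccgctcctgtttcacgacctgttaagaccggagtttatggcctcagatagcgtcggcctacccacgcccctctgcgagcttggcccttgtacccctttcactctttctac
Krt10 peak centre: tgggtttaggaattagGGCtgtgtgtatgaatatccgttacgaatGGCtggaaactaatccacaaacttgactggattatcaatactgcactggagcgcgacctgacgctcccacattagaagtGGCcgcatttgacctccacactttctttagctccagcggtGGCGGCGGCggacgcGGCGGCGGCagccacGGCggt
Krt1 peak centre: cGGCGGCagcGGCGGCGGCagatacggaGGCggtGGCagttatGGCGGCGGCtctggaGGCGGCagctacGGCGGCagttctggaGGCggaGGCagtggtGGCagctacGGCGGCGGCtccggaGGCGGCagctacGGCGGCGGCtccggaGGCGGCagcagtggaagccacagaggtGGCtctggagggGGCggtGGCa

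The promoter count was set against all protein-coding genes. A peak of either list lay within 1 kb of a start site in 59.1% of all protein-coding genes and in 7.55% of the keratin genes (95% Wilson interval 2.97% to 17.9%). In the proximal list these shares were 56.4% of all genes and 3.77% of keratin genes (2 genes, Krt10 and Krt16). In the distal list they were 57.7% of all genes and 7.55% of keratin genes (4 genes). The keratin share thus stood far below the background at each end. Both lists gave a promoter peak to 55.0% of all genes and to 2 keratin genes, and the distal list alone gave one to 2.77% of all genes and to 3.77% of keratin genes, Krt1 and Krt8. The last of these shares is close to its background when taken over all genes of the family. Of the genes with a distal promoter peak, it was distal only for 2 of 4 keratin genes and for 576 of 12016 of all genes. With 4 genes this is a description. The intervals cover counting error only, and with 1 list an end none of the shares has a replicate error.

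Inside the gene, the difference was of the same kind. A peak overlapped 6 keratin genes (11.3%, interval 5.29% to 22.6%) and 63.4% of all genes. In the proximal list, 2 keratin genes held a peak, against 60.6% of all genes, and in the distal list 6 did, against 61.8%. Peaks in the distal list only were held by 4 keratin genes (7.55%, interval 2.97% to 17.9%) and by 2.85% of all genes. Keratin genes are short, with a median length of 6594 bp against 17629 bp for all genes. Per length the difference was small: keratin genes held 15.1 peak regions per Mb of gene (exact Poisson interval 5.53 to 32.8), and all genes held 20.8 per Mb, which lies within that interval. The difference from all genes was thus clear at start sites and, per length, within counting error along the gene. The sets were not matched for length, and peak regions are not even along genes. Of 17122 regions centred in 1 protein-coding gene, 10188 lay in the first of 3 equal parts of it. How far length accounts for the lower share of keratin genes was therefore not tested.

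**Figure D1:**
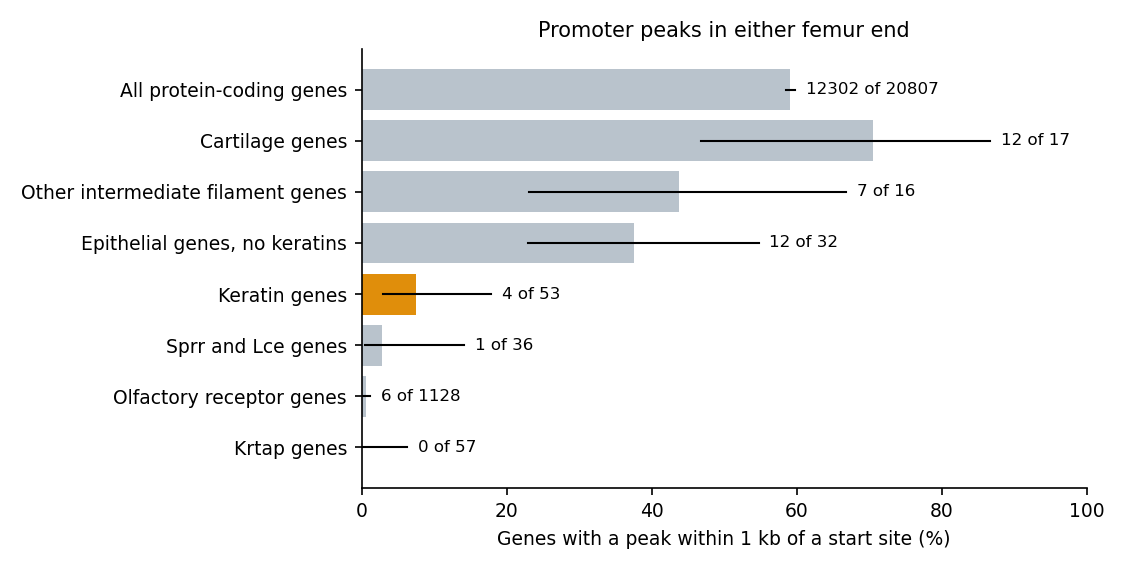
Share of genes with a peak of either femur end within 1 kb of a start site, in percent, for the keratin genes (orange) and other gene lists (grey), with 95% Wilson intervals as lines and the counts beside the bars. The keratin genes, at 4 of 53, lie below the cartilage list (12 of 17) and the list of epithelial genes that are no keratins (12 of 32), and near the Sprr and Lce genes (1 of 36).

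Cartilage genes were counted to check the labelled tissue. Of 17 such genes, 12 had a promoter peak (70.6%, interval 46.9% to 86.7%), a share whose interval includes the 59.1% of all genes, so the count by itself does not mark the tissue. Col2a1, Acan and Sox9, which encode the main cartilage collagen, aggrecan and the chondrocyte transcription factor, had one. Ihh, Col10a1, Matn1, Pth1r and Runx2 had none, although Pth1r and Runx2 held peaks inside the gene in both lists. Epithelial genes other than keratins had one in 12 of 32 cases (37.5%, interval 22.9% to 54.7%), 9 in the proximal and 11 in the distal list. Both lists gave a promoter peak to Epcam, Esrp1, Grhl1, Lama3, Dsc2, Jup, Perp and Lor, the distal list alone to Dsg2, Pkp1 and Pkp3, and the proximal list alone to Dsc3. The other 20 had none at either end, among them Cdh1 and Trp63, which encode E-cadherin and p63, and the desmosomal genes Dsp, Dsg1a and Dsg3. Among these 20, Cdh1, Trp63 and Dsg3 each held a peak inside the gene in the proximal list only. Col17a1 held one in the distal list only, and Itgb4 and Tfap2a in both lists. Over the whole epithelial list, 18 of 32 genes (56.3%) held a peak inside the gene, against 63.4% of all genes. Of 16 other intermediate filament genes, 7 had a promoter peak (43.8%, interval 23.1% to 66.8%), namely Vim, Synm, Nefl, Bfsp1 and the lamin genes Lmna, Lmnb1 and Lmnb2. Keratins thus had a lower share than either list, and their interval does not overlap that of the epithelial list or of the other filament genes. The intervals treat neighbouring genes of a cluster as independent, and the lists were chosen with earlier results known. The missing overlap is therefore a description and not a test. The part that epithelial cells in the samples may have in the keratin peaks was not tested.

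By class of keratin, the start sites with a peak were spread thinly. A promoter peak was found for 0 of 3 basal keratins (Krt5, Krt14, Krt15), 0 of 15 hair shaft keratins, 0 of 7 keratins of the inner root sheath and 0 of 5 mucosal and corneal keratins. It was found for 1 of 6 simple epithelial keratins (Krt8), 2 of 6 suprabasal keratins (Krt1 and Krt10) and 1 of 6 keratins of wounds and appendages (Krt16). Of the 28 type I genes 2 had one, and of the 25 type II genes 2 had one. With so few genes in a class the intervals overlap, from 9.68% to 70.0% for the suprabasal and from 0 to 20.4% for the hair shaft keratins. The classes were assigned from general knowledge of where each keratin is used.

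Krt16, a keratin of wounds and skin appendages, was the keratin gene whose 5′ end lay under a peak. The peak ran from 100248725 to 100249509 on chromosome 11 in the proximal list (785 bp) and from 100248834 to 100249485 in the distal list (652 bp). It covered the start of the gene and reached into exon 1 of 8, and no other gene started within 1 kb of it. The region had a GC content of 57.1% and an observed to expected CpG ratio of 0.188. Krt17, the next keratin gene in the cluster and likewise a gene of wounds and appendages, had its nearest peak 11520 bp from its start in the proximal and 11544 bp in the distal list, which is this same Krt16 peak. Of the 2 neighbours, then, 1 had an open start at both ends of the femur.

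The Krt10 peak was also present at both ends but lay inside the gene. It ran from 99385837 to 99386810 in the proximal list (974 bp) and to 99386725 in the distal list (889 bp), from the same first base. It touched exons 6 and 7 of the 8 exons of its main transcript, 57.2% of it was coding sequence, and its edge was 2554 bp from the 5′ end of the gene. Krt10 counted among the genes with a promoter peak because the peak covered the start of a second, internal transcript, Krt10-202. Gm11940, an antisense gene, started 530 bp away. The region was rich in CpG, with 72 CpG dinucleotides, 7.39 per 100 bp, and an observed to expected ratio of 0.918. Krt10, the type I partner of Krt1 in the suprabasal epidermis, therefore had a peak in its 3′ part and 0 at its main promoter.

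Krt1, the type II partner, had a peak of the same kind in the distal list only. It ran from 101845874 to 101846392 on chromosome 15 (519 bp), touched exons 8 and 9 of 9, and was coding sequence for 77.5% of its length. Its edge was 4402 bp from the 5′ end of Krt1 and 202 bp from the start of Krt1-202, a transcript with a retained intron, by which it counted. It held 41 CpG dinucleotides, 7.90 per 100 bp, at a GC content of 65.7%. In the proximal list the nearest peak to a Krt1 start site was 91129 bp away. The 2 partner genes, on different chromosomes, thus each carried a CpG-dense peak over exons of their 3′ part and had none at the 5′ end.

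Krt8, the type II keratin of simple epithelia, had a peak of 578 bp in the distal list only, from 102002965 to 102003542. All of it lay in intron 1 of the gene, which has 9 exons, 940 bp downstream of the start, near the limit of 1 kb. Gm36026, a lincRNA gene on the other strand, started 670 bp from it. In the proximal list the nearest peak was 19799 bp from the Krt8 start. Krt18, its partner, stands next to it, and its start was 37510 bp from the nearest proximal peak and 24638 bp from the nearest distal peak, the latter being the Krt8 intron peak. Krt18 therefore had no peak at its start although its promoter, with an observed to expected CpG ratio of 0.644, was among the few CpG-rich ones of the family.

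Krt86, a hair shaft keratin, and Krt88 each had a distal-only peak in the last exons. The Krt86 peak ran from 101479156 to 101479682 (527 bp) over exons 8 and 9 of 9, at 91.3% of the length of the gene. The start of the lincRNA gene Gm49501 lay 614 bp from it. The Krt88 peak ran from 101453361 to 101453715 (355 bp) over exon 5 of 5, at 94.0% of the length. Both peaks were more than 5 kb from the start of their gene, 5678 bp for Krt86 and 5617 bp for Krt88. The nearest proximal peaks were 84812 bp and 59078 bp from the starts.

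Position along the gene was then compared with other genes, a comparison chosen after these positions had been seen. Of the 6 regions that overlapped keratin genes, 5 had their centre inside the gene, and that of Krt16 was centred upstream of it. Of these 5, 4 lay in the last of 3 equal parts of the gene (80.0%) and 1, that of Krt8, in the first. Of the 17122 regions centred in 1 protein-coding gene, 19.99% lay in the last part, and of the distal-only ones 28.7% did. With 5 regions this is a description of Krt1, Krt10, Krt86 and Krt88 and not of the family. The count of 4 promoter genes also rests on how a start is defined. Counted from the 5′ end of the gene record, it was 2, Krt16 and Krt8, and without peaks within 1 kb of another gene's start it was 2, Krt1 and Krt16. Krt16 was called under each of these definitions.

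The other keratins were far from any peak. The median distance from a keratin gene's start sites to the nearest peak was 49003 bp in the proximal and 41286 bp in the distal list, against a median of 0 over all protein-coding genes in each list. It exceeded 10 kb for 47 keratin genes (88.7%) in the proximal and 43 (81.1%) in the distal list, where 33.9% and 33.0% of all genes did so. Distances of over 100 kb were found for 20.8% and 26.4% of keratin genes and for 10.3% and 10.7% of all genes. Neighbouring genes share their nearest peak, so these distances are not independent of each other. The largest were 261636 bp, for Krt6b in the proximal list, and 232622 bp, for Krt33a in the distal list.

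Among the epithelial markers, the basal keratin Krt5 was 229025 bp from the nearest proximal and 132976 bp from the nearest distal peak. Its partner Krt14 was nearer, at 41177 bp and 41286 bp. Krt15, another basal keratin, was 20351 bp and 112906 bp away, and Krt19, of simple epithelia, 29652 bp and 100169 bp, so that both were closer to a peak in the proximal list. Krt7, found in ductal epithelia, was 22377 bp and 22376 bp away. Krt20, of the intestinal epithelium, was 26687 bp and 26765 bp away, and these distances hardly differed between the ends. The gene closest to a peak without being counted was Krt79, a keratin of the hair follicle opening, at 1599 bp and 1630 bp.

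**Figure D2:**
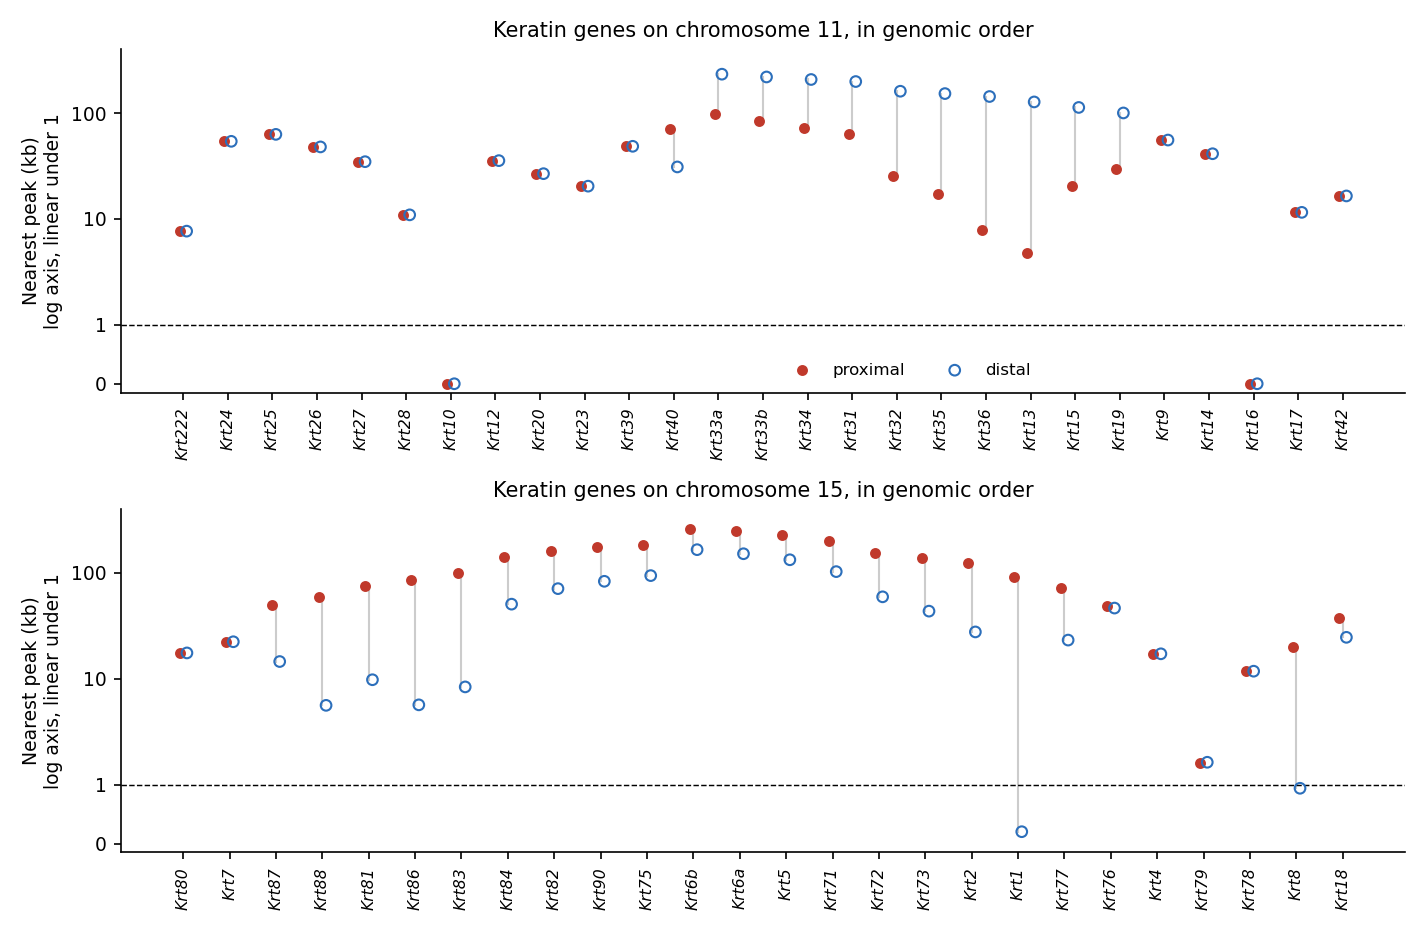
Distance in kb from each keratin gene's start sites to the nearest proximal (red, filled) and distal (blue, open) peak, in genomic order along chromosome 11 (top) and chromosome 15 (bottom), on an axis that is logarithmic above 1 kb and linear below, with the limit of 1 kb dashed. Krt10 and Krt16 lie at 0 in both lists, Krt1 and Krt8 lie under the limit in the distal list only, and from Krt87 to Krt77 on chromosome 15 every distal point lies below its proximal point.

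The keratin genes stood in 2 clusters. On chromosome 11, 27 type I genes from Krt222 to Krt42 occupied 1037 kb, from 99232761 to 100269871, all on the minus strand. On chromosome 15, 25 type II genes and the type I gene Krt18 occupied 685 kb from 101347444 to 102032027, from Krt80 to Krt18, of which 4 lay on the plus and 22 on the minus strand. A cluster was a chain of keratin genes with at most 500 kb between neighbours. Overlapping peaks of the lists were merged, which left 15 peak regions in the clusters, 6 on chromosome 11 and 9 on chromosome 15. Of these, 6 lay in keratin genes and 9 outside them.

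**Figure D3:**
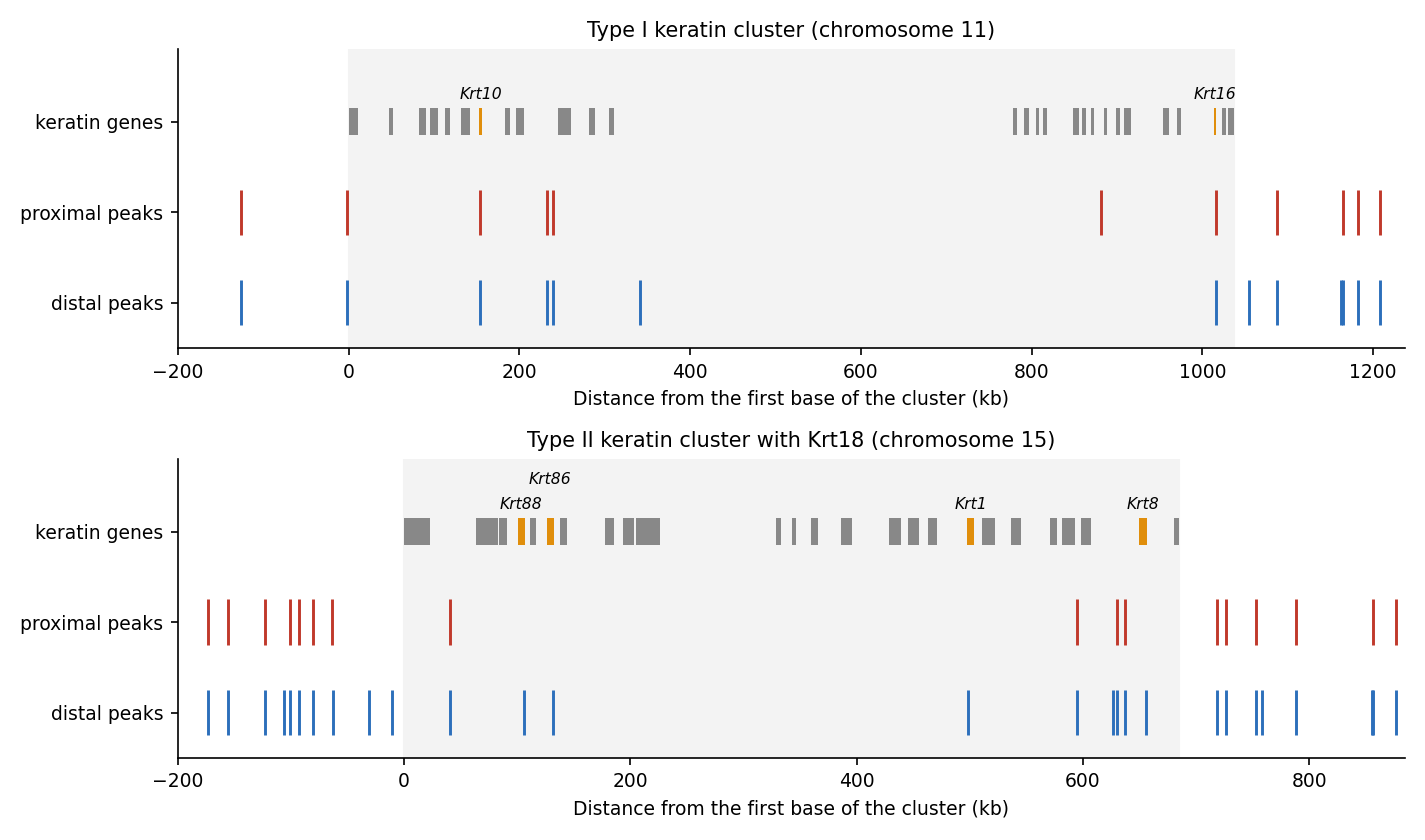
Map of both keratin clusters (shaded) with 200 kb on either side, showing keratin genes (grey, or orange and named where a peak overlaps the gene) and the peaks of the proximal (red) and distal (blue) lists, by distance in kb from the first base of the cluster. Peaks in the chromosome 11 cluster stand near its 2 sides with a wide gap between, and the chromosome 15 cluster holds 4 proximal and 9 distal peaks.

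On chromosome 11 the density of peaks was below the mean of the chromosome. The cluster held 5.79 regions per Mb (exact Poisson interval 2.12 to 12.6) and the chromosome 14.4 per Mb, a ratio of 0.402 (interval 0.148 to 0.875). It was 4.82 per Mb in either list alone, against 12.8 for the chromosome in the proximal and 12.5 in the distal list. The flanks were dense, with 30.0 regions per Mb in the 500 kb before the cluster and 24.0 per Mb in the 500 kb after it. The density was thus lower in the cluster than on both sides of it. Of 113 consecutive windows of the same length along the chromosome, 19 (16.8%) held 6 regions or fewer, and the median window held 14. A count this low was thus not rare when gene content was left aside. Each of those 19 windows held at most 11 protein-coding genes. The cluster was rich in genes, with 68 protein-coding genes, 27 of them keratins and 23 Krtap genes, where the median window held 11. Of the windows, 0 held as many genes. The windows nearest in gene content, with 66 and 65 protein-coding genes, held 29 and 12 regions. Per protein-coding gene it held 0.0882 regions, and the chromosome 1.04.

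On chromosome 15 the density did not differ from the mean beyond counting error. The cluster held 13.1 regions per Mb (interval 6.01 to 25.0) and the chromosome 12.7, a ratio of 1.03 (interval 0.472 to 1.96). With wider peaks alone the ratio was 0.235, for which no interval was computed. Both clusters together then held only 4 proximal and 3 distal peaks. The lists differed, since the proximal list had 5.84 peaks per Mb in the cluster against 10.9 for the chromosome, and the distal list 13.1 against 11.2. The flanks again held more, 28 per Mb before and 40 per Mb after the cluster. Of 145 windows of the same length, 95 (65.5%) held 9 regions or fewer. Only 2 windows held at least as many protein-coding genes as the 29 of the cluster, and the lower of them held 16 regions. Per protein-coding gene the cluster held 0.310 regions and the chromosome 1.63, so on that scale both clusters were below their chromosome. For both clusters together 15 regions stood against 23.6 at the chromosome means, a ratio of 0.634 (interval 0.355 to 1.05).

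**Figure D4:**
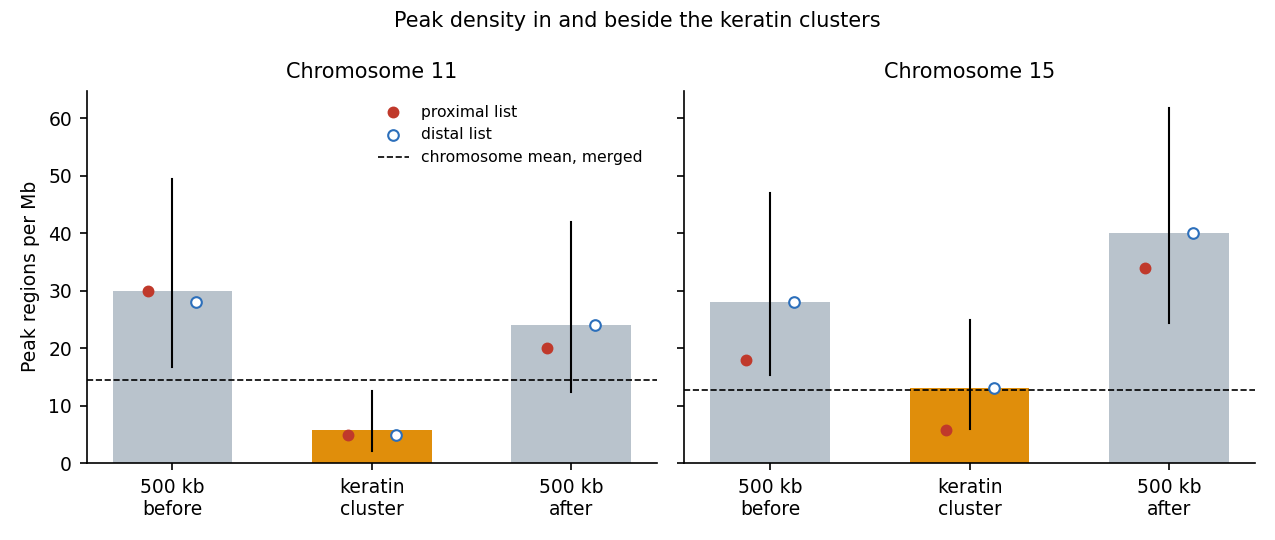
Merged peak regions per Mb in each keratin cluster (orange) and in the 500 kb on either side (grey), with 95% exact Poisson intervals as lines, the density of the proximal (red) and distal (blue) list as points and the chromosome mean of merged regions dashed. The cluster on chromosome 11 lies under its mean at 5.79 against 14.4 per Mb, and that on chromosome 15 at 13.1 against 12.7 per Mb, with both clusters under their flanks.

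Within the clusters, many keratin genes stood in long stretches without a peak. On chromosome 11 a stretch of 539 kb held the 7 hair shaft keratins Krt33a, Krt33b, Krt34, Krt31, Krt32, Krt35 and Krt36 together with 20 Krtap genes. It ranked 19th of the 1708 stretches between neighbouring regions on the chromosome, whose median was 34.05 kb. A stretch of 135 kb inside the same cluster held Krt13, Krt15, Krt19, Krt9 and Krt14. On chromosome 15 a stretch of 366 kb, 41st of 1281 with a median of 35.7 kb, held 12 keratins, among them the basal Krt5, the inducible Krt6a and Krt6b, the root sheath genes Krt71, Krt72 and Krt73 and the suprabasal Krt2. A stretch of 95.5 kb held Krt77, Krt76, Krt4 and Krt79. These 4 stretches account for 28 of the 53 keratin genes, and 2 of them are among the longer ones of their chromosomes. Another stretch, not among these 4, began before the chromosome 11 cluster and ran to the Krt10 peak, 153 kb inside it. It held Krt222 and Krt24 to Krt28.

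The single-end regions of the clusters were mostly distal. Of the 15 regions, 8 held a peak of both lists, 6 of the distal list only and 1 of the proximal list only. Over the genome 12.9% of the merged regions were distal only and 14.1% proximal only. On chromosome 15, 5 of the 9 cluster regions were distal only, and on the whole chromosome 190 of 1282 were. The flanks of that cluster held 5 distal-only regions of 14 before it and 3 of 20 after it, and so were not without them. The distal-only regions of the clusters were narrow, with a median width of 437 bp, as were those of the genome with 497 bp, while regions with both lists had medians of 756.5 bp and 812 bp. When each list was limited to its wider peaks, those of median width or more, 3 peaks in the clusters had no partner, 2 of them in the proximal list, a count in which a wide peak with a narrow partner stands as single. Without peak heights or replicate lists, a difference between the ends cannot be set against replicate error.

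The single proximal-only region, from 100113534 to 100114047 (514 bp), lay 4787 bp from a start of Krt13, a mucosal keratin, and in the distal list the nearest peak to Krt13 was 127268 bp away. The distal-only regions outside the genes were one of 339 bp near Krtap1-5 (from 99574142 to 99574480, 6536 bp from its start) and one of 332 bp (from 101973776 to 101974107) that was 19489 bp from Krt78. The regions of both lists outside the genes lay 26687 bp from Krt20, 20400 bp from Krt23, 17552 bp from Krt80, 1599 bp from Krt79, 22810 bp from Krt78 and 19799 bp from Krt8. The start of another gene lay within 1 kb of none of these 9 regions. The closest starts were that of Gm12347, 1428 bp from the proximal-only region, and that of Krt79.

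AP-1 motifs stood in most of the regions outside keratin genes. The letters TGANTCA, which read the same on both strands, were present in the central 300 bases of 6 of the 9 regions outside and of 1 of the 6 inside keratin genes, that of Krt16. Over all 32388 regions the share was 29.8%, over regions of both lists 26.1%, over distal-only ones 30.8% and over proximal-only ones 47.7%. These shares include regions at start sites, while none of the 9 regions lay within 1 kb of one. With 9 regions the count is a description. A region from each cluster is shown as an example of these peaks of both lists, by its central 200 bases on the plus strand, with the same motifs in capitals. That near Krt20 lies at chr11:99465101-99465300, and that between Krt78 and Krt8, with a GC content of 67.5% over the region and several GC boxes, at chr15:101977342-101977541. A match is not a bound site.
Peak centre near Krt20: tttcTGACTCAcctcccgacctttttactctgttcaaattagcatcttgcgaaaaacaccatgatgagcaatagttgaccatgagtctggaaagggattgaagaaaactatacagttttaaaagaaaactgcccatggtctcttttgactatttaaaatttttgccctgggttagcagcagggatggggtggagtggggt
Peak centre between Krt78 and Krt8: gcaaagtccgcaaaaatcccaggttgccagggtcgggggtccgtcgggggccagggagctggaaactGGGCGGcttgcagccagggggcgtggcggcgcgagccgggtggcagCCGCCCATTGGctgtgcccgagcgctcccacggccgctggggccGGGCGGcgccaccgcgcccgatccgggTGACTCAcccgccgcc

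Keratin promoters were poor in CpG. Over 250 bases before to 50 after the gene's 5′ end, the observed to expected CpG ratio had a median of 0.260 in keratin genes (range 0.0523 to 0.782) and of 0.540 in all genes. All genes with a promoter peak had a median of 0.742 and those without one 0.202, so keratin promoters resembled the latter. The 4 keratin genes with a promoter peak had a median of 0.170, and the other 49 one of 0.268, so the genes with a peak did not have more CpG at their 5′ end. CpG content was related to promoter peaks across all genes. At a ratio over 0.6, 89.1% of 9462 genes had a promoter peak, but 0 of the 3 keratin genes there, Krt28, Krt87 and Krt18. At or under 0.6, 34.2% of all genes and 8.00% of the keratin genes (4 of 50) had one. The share of keratins was lower than that of all genes in each class of CpG content.

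**Figure D5:**
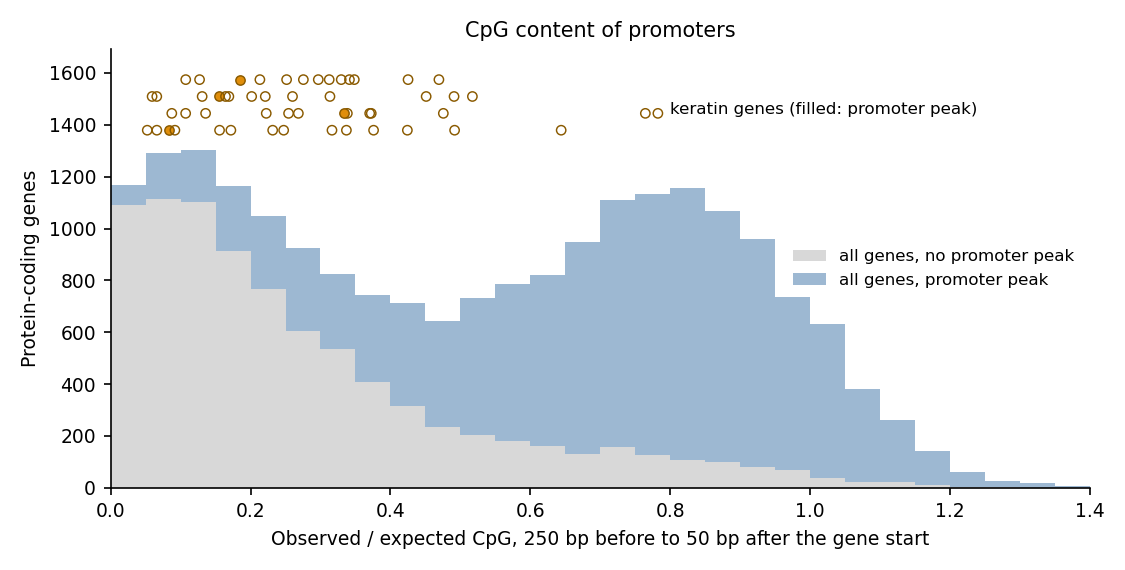
Number of protein-coding genes by the observed to expected CpG ratio of the promoter, stacked by whether the gene had a promoter peak (blue) or none (grey), with the keratin genes as circles above at arbitrary height, filled where they had a promoter peak. Keratin genes lie mostly on the CpG-poor side, with a median of 0.260, and 3 of them exceed 0.6 without a peak.

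In sequence, keratin promoters held the TATA box more often and the GC box less often than others. TATAAA was present on either strand in 25 of the 53 windows (47.2%) and in 12.7% of all genes. GGGCGG was present in 6 (11.3%) and in 43.7% of all genes. CCAAT was found in 37.7% of keratin windows and 38.6% of all, and TGANTCA in 7.55% and 6.88%, which are near each other. The keratin windows with TGANTCA were those of Krt13, Krt15, Krt14 and Krt4. Of the 4 genes with a promoter peak, Krt10 and Krt16 had TATAAA in this window and Krt1 and Krt8 did not, although the RefSeq window of Krt8 shown above, set by another start, does hold it. The Krt5 window shown above had a GC content of 57.7% and 0 matches to the 4 motifs.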

How the data were processed

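The deposited files hold 1 list of peak positions per femur end, with no peak height, score or p-value. To make them, the authors used Bowtie2 with the mm10 genome, discarded duplicate reads, called peaks with MACS2 and retained those with an IDR below 0.05 between replicates (Bowtie2 2.2.8 and MACS2 2.1.1 per the submitters' processing notes). Depth behind a peak is unknown here, and reads were not analysed. The lists held 28257 proximal and 27958 distal peaks, on 19 autosomes, and 0 extended past a chromosome end.

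GENCODE mouse release 21 and the sequence of GRCm38.p6, whose chromosomes are those of mm10, were read with pysam 0.24.0 and Python 3.11.15, and intervals were computed with SciPy 1.17.1. Overlap was counted from 1 bp. A promoter peak had its edge within 1 kb of any annotated start of the gene. Densities were merged regions per Mb of determined bases, and windows had at least 90% of bases determined. The code was tested on simulated data. Wilson and exact Poisson intervals are at the 95% level and cover counting error only. With 1 list per end, no test over samples could be run.

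The members and gene lists were chosen with earlier results of these data known. Named were keratin genes with a promoter or gene peak, Krt1, Krt5, Krt7, Krt8, Krt10, Krt14, Krt15, Krt17, Krt18, Krt19 and Krt20, and other genes with a start within 1 kb of such a peak. Other keratins named for their place in a class, stretch or distance, and members of the comparison lists, were named after their values were seen. Alternatives changed the start site, distance, width, overlap, cluster limits and density scale. Near-identical keratin genes share sequence, and the effect of that on read alignment was not tested.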

Additional observations from a re-analysis of the deposited data

How the results depend on the processing

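Of 36 alternatives, 27 left a count within 1.5 times the reported one or a density ratio within its counting interval, and 9 did not. The 27 include the ratios with a gap of 1 Mb. These could not change, since the keratin genes of each chromosome already formed 1 chain. The intervals are wide, and 4 of the ratios inside them were over 1.5 times from the reported ratio: on chromosome 11 0.610 against 0.402 with clusters cut at gaps of 100 kb, for both clusters 0.404 against 0.634 with wider peaks, and on chromosome 15, against 1.03, 0.538 with the proximal list alone and 1.60 with 100 kb added on both sides. The 4 keratin genes with a promoter peak became 2 when starts were 5′ ends of gene records (Krt16 and Krt8), 2 when each list was limited to its wider peaks, of median width or more (Krt10 and Krt16), and 2 without peaks near another gene's start (Krt1 and Krt16). With wide peaks, the genes with a peak inside fell from 6 to 2 and the single-end peaks from 7 to 3. Wide peaks also lowered the density ratio of the chromosome 15 cluster from 1.03 to 0.235. The alternative ratios have no interval of their own, and with wide peaks both clusters together held only 4 proximal and 3 distal peaks. Per protein-coding gene, the ratio was 0.127 for both clusters, 0.0846 on chromosome 11 and 0.190 on chromosome 15. With the proximal list alone, an alternative added after the data were seen, the chromosome 11 ratio was 0.377, and with the distal list alone it was 0.386, against 1.18 on chromosome 15. On chromosome 15 the ratio thus changed side of 1 with the list, the width limit and the scale. The chromosome 11 ratio was under 1 in every alternative run. The cause of these changes was not tested. No paired analysis was possible because each list combines the replicates of its end, and no replicate could be left out. Without peak heights or replicate lists, the depth limit of a missing peak is not known.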

Other observations

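The Krtap genes, which encode the matrix proteins of the hair shaft, had a promoter peak in 0 of 57 cases in either list (upper Wilson bound 6.31%), and 23 of them lie inside the keratin cluster of chromosome 11. Between Krt40 and Krt33a, a stretch of 468 kb with 41 protein-coding genes, including these 23, held 1 peak region. The Sprr and Lce genes, which encode proteins of the cornified envelope, had a promoter peak in 1 of 36 cases (2.78%), Sprr1a. The olfactory receptor genes (Olfr), a large family in clusters that is used in sensory neurons, had one in 6 of 1128 cases (0.532%). These families are set beside the keratins as other clustered genes of tissues that cartilage is not, and the difference between the families was not tested.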
